A study of Homo sapiens with 6 samples.

Results

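Ion channel genes of 3 families were compared between wild-type HEK 293T cells and cells of the same line labelled as lacking TUT4 and TUT7: the potassium channel genes (KCN symbols), the sodium channel alpha subunits (SCN symbols ending in A) and the calcium channel alpha-1 subunits (CACNA1). Protein-coding genes were taken by symbol, with no measured value used, apart from a minimum on counts. Of 89 matching symbols, 1 potassium channel symbol was left out, and 88 of the 30270 genes listed were kept. A gene was tested where its largest count over the 6 libraries was above 12, which left 71 of the 88, namely 59 potassium, 7 sodium and 5 calcium channel genes, among 23952 genes tested in all.

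HEK 293T is an embryonic human kidney line that carries the SV40 large T antigen. The study asked how the transcriptome changes when TUT4 and TUT7, uridylyltransferases also named TENT3A and TENT3B that add uridines to RNA 3′ ends, are both deleted. Total RNA depleted of ribosomal RNA was sequenced from 3 libraries of WT cells and 3 of the double knockout (ΔTUT4/7), both grown without treatment in DMEM with serum and antibiotics. The knockout line had been made and published earlier and was given to the authors, so each group is 1 line, and differences between the lines other than the deletion cannot be told apart from it. Replicates are labelled as biological, with nothing on whether they were separate cultures, so the p-values measure the spread between these libraries.

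Voltage-gated channels open a pore for 1 kind of ion when the membrane potential changes. Sodium and many calcium channels carry the rising phase of electrical signals, and Kv potassium channels repolarise the membrane. In cells that do not fire, such as kidney epithelium, potassium channels set the resting potential, and calcium channels link it to calcium entry. The symbols cover more than voltage-gated pores. By name, 39 of the 71 tested genes encode pore-forming subunits of voltage-gated channels, while the other 32 encode calcium- or sodium-activated potassium channels, inward rectifiers, tandem-pore channels that carry leak currents, or accessory subunits.

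Libraries held 18757228 to 33148937 counts. No pair of replicates agreed within sampling noise (chi-square per degree of freedom 2.44 to 10.3). TUT7 was lower in the knockout libraries, at 26.3 ± 1.04 CPM (counts per 1000000, mean ± SD, n = 3 as everywhere below) against 62.6 ± 2.17, whereas TUT4 was higher, at 906.3 ± 21.4 against 211.4 ± 5.08 CPM. Gene counts do not show whether a transcript makes protein, and since the TUT4 value goes against a plain reading of the label, every direction below refers to the libraries labelled ΔTUT4/7. All 7 markers of an embryonic kidney line were detected, of which CDH2, VIM and KRT18 were higher and PAX2, LHX1, EMX2 and KRT8 lower. Their summed levels, 549.6 to 588.4 CPM in WT and 1357 to 1369 in ΔTUT4/7 libraries, were mostly VIM, which had means of 496 and 1250 CPM. Summed levels of the neuronal markers, 6 of 8 tested, were 367 to 395 CPM in WT and 133.6 to 138.8 in ΔTUT4/7 libraries, with 2 members higher and 3 lower, SNAP25 under 1 CPM, and ELAVL4 and STMN2 not analysed here. That sum was mostly NEFL, which had means of 352 and 105 CPM. RBFOX3 and TUBB3 were higher, and NEFL, SYT1 and MAP2 lower. For muscle markers, 4 of 7 tested, the sums were 29.3 to 31.2 and 51.7 to 52.8 CPM, with 2 members higher and 1 lower, MYH6 and RYR1 under 1 CPM, and MYH7, TNNT2 and MYOG not analysed here. Fibroblast markers, 2 of 3 tested, summed to 21.2 to 25.6 and 8.97 to 10.98 CPM, with 1 lower and DCN not analysed here, and no leukocyte marker passed the minimum, LYZ being under 1 CPM and PTPRC and CD3E not analysed here. The part of these shifts in the channel results was not tested. In bulk RNA, fewer cells expressing a gene and less RNA per cell cannot be told apart.

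Channel transcripts were scarce. Per kb of exon, the median level of the 71 genes over all libraries was 0.372 CPM per kb, against 4.96 for 14354 protein-coding genes, and only 1 of the 71, KCNJ8, lay above the latter. KCNJ8, the pore of an ATP-sensitive inward rectifier, was at 7.73 CPM per kb, followed by KCNG3, a modifier subunit of Kv channels, at 4.28, the tandem-pore channel KCNK1 at 4.18, the Kv channel KCNC4 at 3.40 and the BK channel beta subunit KCNMB4 at 2.71. The T-type calcium channel CACNA1H, at 2.66 CPM per kb, led its family. Family medians per kb were 0.308 for potassium, 0.372 for sodium and 0.494 for calcium channels. The order depended on the group: KCNC4 stood at 4.98 CPM per kb in WT and 1.82 in ΔTUT4/7 libraries.

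**Figure D1:**
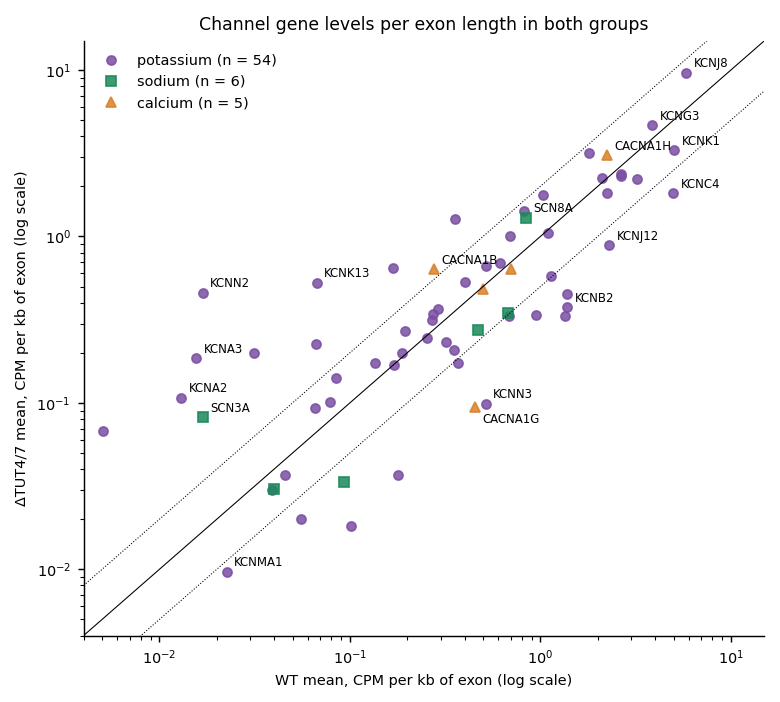
Mean level of the tested channel genes reported singly, per kb of exon in WT libraries (x axis, CPM per kb, log scale) against ΔTUT4/7 libraries (y axis, same scale), by family; KCNA1, at 0 in WT, is not drawn. The solid line marks equal levels and the dotted lines 2-fold differences, and the scarce genes lie farthest from the solid line, with KCNC4 below it among the more abundant ones.

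Of the 71 genes, 23 rose and 22 fell in ΔTUT4/7 libraries at a false discovery rate (FDR) under 0.05, and 26 did not pass. Among all genes tested, 28.6% were higher and 29.0% lower by that rule, against 32.4% and 31.0% of the channel genes. Among the protein-coding genes tested, to which all the channel genes belong, 37.9% were higher and 31.8% lower. At a change of 2-fold or more, 13 channel genes (18.3%) were higher and 15 (21.1%) lower. The shares were 5.90% and 12.4% of all genes, and 6.26% and 10.6% of protein-coding ones. These backgrounds are not matched for level. Among genes averaging under 50 counts, 31.2% of 32 channel genes were 2-fold higher and 18.8% lower, beside 9.06% and 27.8% of protein-coding ones. At 50 counts or more, the shares were 7.69% and 23.1% of 39 channel genes, beside 5.74% and 7.41% of protein-coding ones. In 25 genes (35.2%) every ΔTUT4/7 library lay above every WT library and in 24 (33.8%) below, and in 22 the groups overlapped. The shares above and below were 30.9% and 31.8% of all genes, and 39.7% and 33.6% of protein-coding ones. The median log2 fold change was 0.11, against -0.02 for all genes tested and 0.04 for protein-coding ones.

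Low counts and the minimum bear on these numbers. A group of 10 genes passed the minimum only in ΔTUT4/7 libraries (KCNA1, KCNA2, KCNA3, KCNA6, KCNG2, KCNH2, KCNK13, KCNN2, KCNQ3 and SCN3A) and 6 only in WT (KCNE1, KCNH1, KCNH5, KCNJ1, KCNJ4 and KCNMA1). The minimum favours a difference in such genes, and 9 of the 10 were called 2-fold higher and 5 of the 6 lower, beside 36.7% and 53.3% of all genes that passed in ΔTUT4/7 or in WT libraries only. Over the 55 channel genes with counts above 12 in both groups, 4 were 2-fold higher (7.27%) and 10 lower (18.2%), beside 5.16% and 8.64% of the 20849 such genes in all.

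**Figure D2:**
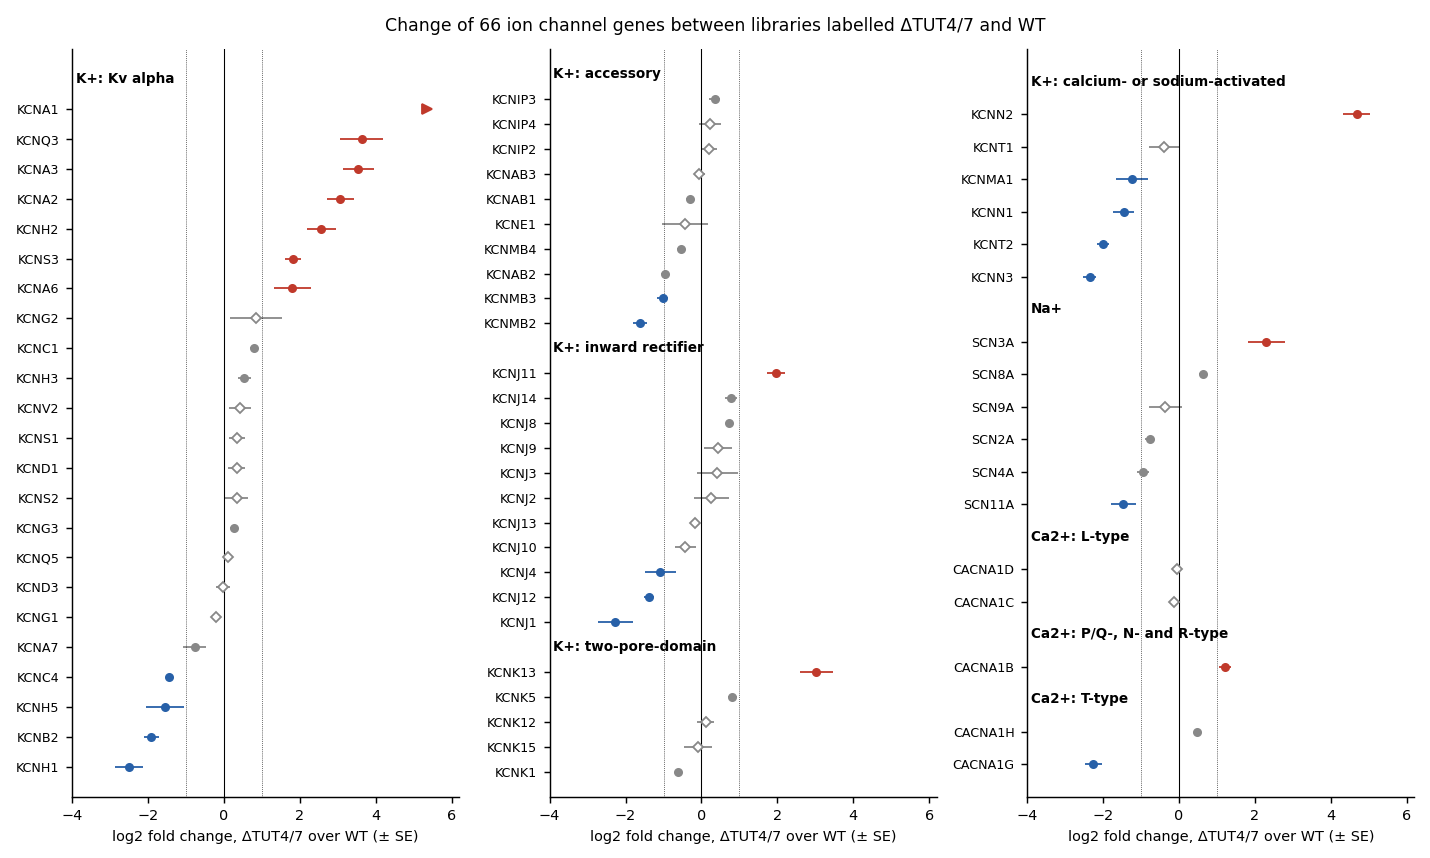
Log2 fold change of ΔTUT4/7 over WT (x axis, ± SE from the quasi-likelihood fit, 3 libraries a group) for 66 of the 71 tested genes, by class. Red and blue circles passed the FDR at 2-fold or more (12 higher and 15 lower among those drawn), grey circles passed it below 2-fold, open diamonds did not, dotted lines mark 2-fold, and the arrow for KCNA1 stands at its lower bound since WT had 0 counts.

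By family, 19 of 59 potassium channel genes rose and 18 fell (32.2% and 30.5%), with 11 and 13 at 2-fold or more (18.6% and 22%). These shares stand beside 28.6% and 29.0% of all genes, with 5.90% and 12.4% at 2-fold or more. That background is not matched for level, and 29 of the 59 potassium channel genes averaged under 50 counts. The median log2 fold change of the potassium genes was 0.20. That median turned to -0.11 among genes averaging at least 50 counts and to -0.05 with no minimum, and of the 44 potassium genes above the minimum in both groups, 3 were 2-fold higher and 8 lower. Of 7 sodium channel genes, 2 rose (28.6%) and 3 fell (42.9%), with 1 and 1 at 2-fold or more and a median of -0.36. The 2-fold increase was SCN3A, above the minimum only in ΔTUT4/7 libraries. Of the 6 sodium genes above the minimum in both groups, 0 were 2-fold higher and 1 lower. Of 5 calcium channel genes, 2 rose (40%) and 1 fell (20%), with 1 and 1 at 2-fold or more and a median of -0.06. Each family thus held changes in both directions, and with 7 and 5 genes the medians of the smaller families rest on few values. Summed potassium channel levels were 403.9 to 411.8 CPM in WT and 345.1 to 359.1 in ΔTUT4/7 libraries, with no overlap. KCNC4, a gene of long exons in total, made up 129.95 ± 2.41 of the 407.1 ± 4.14 CPM in WT. In ΔTUT4/7 libraries it made up 47.6 ± 1.90 of 352.8 ± 7.06 CPM. Scaled by exon length, the potassium sum did not fall, at 55.5 CPM per kb in WT and 56.3 in ΔTUT4/7 libraries. The sodium sum was 51.9 ± 2.60 in WT and 51.1 ± 0.77 CPM in ΔTUT4/7 libraries, with overlapping groups, and the calcium sum 54.1 ± 0.84 and 59.4 ± 2.62 CPM, without overlap.

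Among the 27 Kv alpha subunits, the voltage-gated potassium pores and their modifier subunits, 12 rose and 5 fell (44.4% and 18.5%). These shares stand beside 28.6% and 29.0% of all genes, and 37.9% and 31.8% of protein-coding ones. The gene with the most counts, KCNC4, was among those that fell. Of the 12 that rose, 6 (KCNA1, KCNA2, KCNA3, KCNA6, KCNH2 and KCNQ3) passed the minimum only in ΔTUT4/7 libraries. KCNC4 (Kv3.4), a fast inactivating channel, was at 131, 131 and 127 CPM in WT and 48.8, 45.4 and 48.5 in ΔTUT4/7 libraries. The groups lay far apart, with a log2 fold change of -1.45 ± 0.05 (adjusted p = 1.14e-15), and the median of its 20 neighbouring expressed genes was -0.22. KCNQ3, a subunit of slow, non-inactivating neuronal channels, had 1, 2 and 2 counts in WT and 29, 20 and 13 in ΔTUT4/7 libraries, a log2 fold change of 3.63 ± 0.56 on few counts. KCNQ5, of the same subfamily, was at 23.8 ± 1.66 and 25.5 ± 0.93 CPM and did not pass (adjusted p = 0.288).

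KCNS3, a modifier subunit that alters Kv2 channels, was at 1.07, 1.31 and 0.978 CPM in WT and 3.62, 4.28 and 3.98 in ΔTUT4/7 libraries. It rose with a log2 fold change of 1.82 ± 0.21 (adjusted p = 1.73e-07) and no overlap. KCNB2 (Kv2.2), a Kv2 pore, was at 5.09, 5.42 and 5.05 CPM in WT and 1.09, 1.55 and 1.58 in ΔTUT4/7 libraries, a fall with a log2 fold change of -1.91 ± 0.19 (adjusted p = 2.31e-08). KCNG3, the Kv subunit highest per kb, was at 14.4 ± 1.80 and 17.3 ± 0.94 CPM, and its log2 fold change of 0.26 ± 0.10 (adjusted p = 0.0281) lost the call in 9 of 15 alternatives, among them the fits without replicate 2 or 3 of ΔTUT4/7 and without replicate 1 or 3 of WT (adjusted p up to 0.217). Of the other modifier subunits, KCNG1 (-0.20 ± 0.10, passing as lower under 5 alternatives), KCNG2, KCNS1, KCNS2 and KCNV2 did not pass.

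Of the KCNA (Kv1) genes, delayed rectifier and axonal channels, KCNA1, KCNA2, KCNA3 and KCNA6 were near the limit of detection in WT. KCNA1 had 0 counts in all WT libraries and 55, 23 and 35 in ΔTUT4/7 libraries, at least 40.5-fold higher against a floor of 3 counts over the WT group. KCNA2 had 7, 3 and 8 counts against 72, 29 and 45 (log2 fold change 3.07 ± 0.36), and KCNA3, the Kv1 channel best known from T cells, had 2, 8 and 2 against 64, 38 and 33 (3.54 ± 0.40). KCNA6 rose too, from 19 to 63 counts summed over the group (log2 fold change 1.80 ± 0.48). KCNA7, with 27, 26 and 61 counts in WT and 27, 15 and 19 in ΔTUT4/7 libraries, fell (-0.77 ± 0.30). It lost its call in 5 of 14 alternatives (adjusted p up to 0.264), including those without replicate 1 or 2 of ΔTUT4/7 or replicate 3 of WT. All 5 KCNA genes tested were thus called, 4 of them higher, but those 4 passed the minimum only in ΔTUT4/7 libraries and held no more than 2.3 CPM there. Among all genes tested, 28.6% were higher and 29.0% lower, and of those that passed only in ΔTUT4/7 libraries 36.7% were 2-fold higher.

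Among the KCNH genes, KCNH2 (hERG), the channel of cardiac repolarisation, had 3, 7 and 8 counts in WT and 37, 36 and 25 in ΔTUT4/7 libraries (log2 fold change 2.56 ± 0.38), whereas KCNH1 (EAG1) had 26, 38 and 35 against 6, 5 and 5 (-2.50 ± 0.37). The groups did not overlap in either gene. KCNH2 passed the minimum only in ΔTUT4/7 libraries and KCNH1 and, below, KCNH5 only in WT, so the minimum favoured the direction of their changes. For KCNH1, 18.7% of exon length overlaps genes on the same strand and 28.1% a gene on the opposite strand. KCNH5, from 53 to 16 summed counts, fell as well (-1.55 ± 0.49, adjusted p = 0.00985) but lost the call without replicate 1 of ΔTUT4/7 (adjusted p = 0.0651), while KCNH3 rose (0.54 ± 0.16). The fast Kv3 gene KCNC1 rose from 11.8 ± 0.71 to 20.4 ± 1.91 CPM (0.79 ± 0.10, adjusted p = 3.12e-07), opposite to KCNC4, while the Kv4 genes KCND1 (0.33 ± 0.23) and KCND3 (-0.04 ± 0.18) did not pass.

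**Figure D3:**
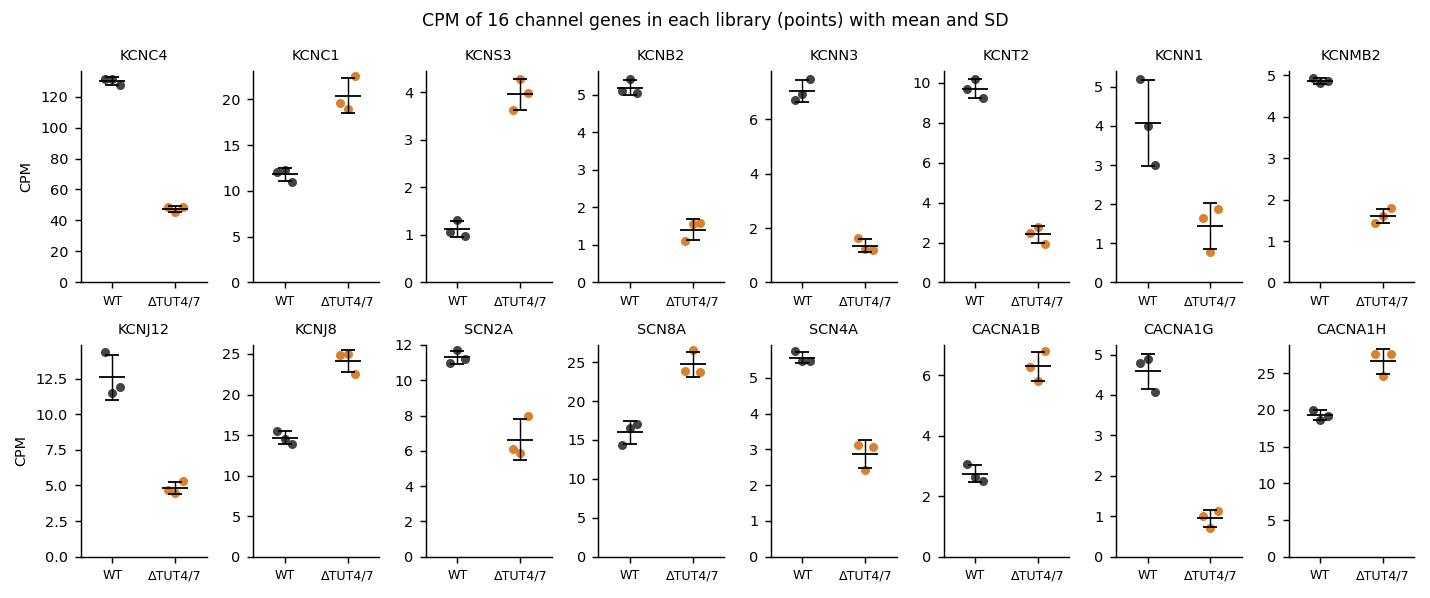
CPM of 16 channel genes in each library (points, 3 WT and 3 ΔTUT4/7), with the mean (wide bar) and SD (error bars); each y axis starts at 0 and has its own range. The points of both groups do not overlap in any of the panels, with KCNC1, KCNS3, KCNJ8, SCN8A, CACNA1B and CACNA1H higher in ΔTUT4/7 libraries and the other 10 lower.

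Of the 6 calcium- or sodium-activated potassium channel genes, 4 fell (66.7%), 1 rose (16.7%) and 1 was not called. Among all genes, 29.0% were lower and 28.6% higher. This class couples potassium efflux to ion entry, through small-conductance SK channels (KCNN), large-conductance BK channels (KCNMA1) and sodium-activated Slack and Slick channels (KCNT). KCNN3 (SK3) was at 6.72, 6.92 and 7.47 CPM in WT and 1.62, 1.24 and 1.17 in ΔTUT4/7 libraries, with no overlap and a log2 fold change of -2.35 ± 0.17 (adjusted p = 1.83e-10). KCNN1 (SK1) was at 5.19, 4.0 and 3.0 against 1.65, 0.773 and 1.89 CPM, more scattered in both groups but without overlap (-1.46 ± 0.28, adjusted p = 0.000317). KCNN2 (SK2) went the other way, with 2, 2 and 4 counts in WT and 91, 44 and 65 in ΔTUT4/7 libraries (4.68 ± 0.36). KCNN2 passed the minimum only in ΔTUT4/7 libraries, and KCNMA1, below, only in WT, so the minimum favoured the direction of their changes. Per kb of exon, the levels of KCNN1, KCNN3 and KCNN2 were 0.952, 0.517 and 0.0169 CPM per kb in WT and 0.337, 0.0989 and 0.460 in ΔTUT4/7 libraries, so KCNN2 stood lowest of the SK genes in WT and highest in ΔTUT4/7 libraries. KCNT2 (Slick) was at 9.67, 10.2 and 9.23 CPM in WT and 2.50, 2.78 and 1.94 in ΔTUT4/7 libraries, a fall with a log2 fold change of -2.0 ± 0.15 (adjusted p = 1.81e-10). KCNT1 (Slack), with 47 and 33 summed counts, did not pass (adjusted p = 0.417). KCNMA1, the BK pore, was scarce, at 70 summed counts in WT and 27 in ΔTUT4/7 libraries (-1.24 ± 0.42, adjusted p = 0.0156), and lost the call in 4 alternatives, DESeq2 and the fits without replicate 3 of ΔTUT4/7 or replicate 2 or 3 of WT (adjusted p up to 0.0692). The summed level of the class was 21.5 to 22.9 CPM in WT and 8.15 to 9.42 in ΔTUT4/7 libraries.

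The 3 BK beta subunits tested, which tune the gating of KCNMA1, all fell. KCNMB2 was at 4.94, 4.81 and 4.86 CPM in WT and 1.44, 1.60 and 1.79 in ΔTUT4/7 libraries (-1.61 ± 0.18, adjusted p = 1.26e-07), a clear separation, although 32.1% of its exon length overlaps a gene on the same strand. KCNMB3 fell from 6.14 ± 0.48 to 3.00 ± 0.27 CPM (-1.03 ± 0.15), but 38% of its exon length overlaps a gene on the opposite strand and the counts cannot be told apart there. KCNMB4, the accessory subunit highest per kb, fell from 15.6 ± 0.54 to 10.7 ± 0.80 CPM (-0.54 ± 0.10, adjusted p = 5.86e-05). Of the cytoplasmic Kv beta subunits, KCNAB2 fell from 19.5 ± 1.51 to 10.01 ± 1.05 CPM (-0.95 ± 0.10) and KCNAB1 less (-0.31 ± 0.09), a call lost without replicate 1 of ΔTUT4/7 (adjusted p = 0.0527), while KCNAB3 did not pass. KCNIP3, a calcium-binding partner of Kv4 channels, was the only accessory gene called higher (0.35 ± 0.15, adjusted p = 0.049), and it lost that call in 13 of 15 alternatives, including the replicate block and 5 of the 6 fits that leave out 1 library (adjusted p up to 0.182). KCNIP2, KCNIP4 and KCNE1 did not pass. In all, 5 of 10 accessory genes fell and 1 rose (50% and 10%, beside 29.0% and 28.6% of all genes).

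Inward rectifiers, which let potassium in more easily than out and hold the resting potential, were split, with 3 of 11 higher and 3 lower. These are 27.3% each, beside 28.6% and 29.0% of all genes. KCNJ12 (Kir2.2) was at 14.4, 11.5 and 11.9 CPM in WT and 4.65, 4.48 and 5.31 in ΔTUT4/7 libraries, a fall with a log2 fold change of -1.38 ± 0.13 (adjusted p = 4.7e-09). KCNJ8 and KCNJ11, the 2 pores of ATP-sensitive potassium channels, both rose: KCNJ8 (Kir6.1) was at 15.5, 14.6 and 13.9 CPM in WT and 24.8, 25.1 and 22.6 in ΔTUT4/7 libraries (0.72 ± 0.08, adjusted p = 1.85e-07). KCNJ11 (Kir6.2) rose from 62 to 231 summed counts (1.96 ± 0.24). KCNJ14 rose as well, from 4.42 ± 0.91 to 7.61 ± 1.07 CPM, with 23.5% of its exon length overlapping a gene on the other strand. KCNJ1 (ROMK), the potassium secretion channel of the kidney tubule, fell from 65 to 12 summed counts (-2.27 ± 0.46), and KCNJ4 from 58 to 25, a call lost in 6 alternatives (adjusted p up to 0.114), including the replicate block and the fits without replicate 1 or 3 of either group. KCNJ1 and KCNJ4 passed the minimum only in WT, so the minimum favoured the direction of their changes. KCNJ2, KCNJ3, KCNJ9, KCNJ10 and KCNJ13 did not pass.

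Of the tandem-pore leak channels, KCNK1 (TWIK1) fell and KCNK5 (TASK2) and KCNK13 (THIK1) rose. KCNK1 was at 18.3, 17.7 and 17.5 CPM in WT and 11.3, 12.3 and 11.5 in ΔTUT4/7 libraries, a tight separation with a log2 fold change of -0.61 ± 0.09 (adjusted p = 5.37e-06). Its 20 neighbours had a median of -0.50, and the difference beyond them was -0.11. KCNK5, a channel of kidney tubule cells, rose from 6.82 ± 0.41 to 12.02 ± 1.28 CPM (0.81 ± 0.11), against a neighbour median of 0.00. KCNK13 rose from 11 to 88 summed counts (3.02 ± 0.44), but it passed the minimum only in ΔTUT4/7 libraries, so the minimum favoured that direction. KCNK12 and KCNK15 did not pass.

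The sodium channel genes gave 3 lower, 2 higher and 2 not called. SCN2A (Nav1.2), a neuronal channel, was at 11, 11.7 and 11.2 CPM in WT and 6.08, 5.88 and 7.97 in ΔTUT4/7 libraries. All ΔTUT4/7 libraries lay below the WT ones, replicate 3 nearest, with a log2 fold change of -0.78 ± 0.12 (adjusted p = 1.33e-05). SCN8A (Nav1.6), the channel of mature axon initial segments, was at 14.4, 16.5 and 17.1 CPM in WT and 23.8, 26.6 and 23.7 in ΔTUT4/7 libraries. It rose without overlap (0.62 ± 0.09, adjusted p = 2.54e-06), with a neighbour median of 0.24. SCN3A (Nav1.3), prominent in the embryonic brain, had 5, 7 and 2 counts in WT and 27, 16 and 23 in ΔTUT4/7 libraries (2.30 ± 0.48, adjusted p = 0.000317). It passed the minimum only in ΔTUT4/7 libraries, so the minimum favoured the direction of its change. SCN4A, the skeletal muscle channel, fell from 5.56 ± 0.16 to 2.87 ± 0.39 CPM (-0.94 ± 0.16, adjusted p = 2.6e-05). SCN11A (Nav1.9), a channel of sensory neurons, had 19, 30 and 42 counts in WT and 14, 7 and 9 in ΔTUT4/7 libraries (-1.47 ± 0.33, adjusted p = 0.000699). SCN9A, with at most 15 counts in any library, did not pass (-0.36 ± 0.43, adjusted p = 0.503).

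The 5 calcium channel genes split within the T-type class. CACNA1G (Cav3.1) was at 4.79, 4.88 and 4.08 CPM in WT and 0.999, 0.722 and 1.12 in ΔTUT4/7 libraries, a fall with a log2 fold change of -2.25 ± 0.21 (adjusted p = 9.28e-09). CACNA1H (Cav3.2), of the same low-voltage class, was at 20.01, 18.7 and 19.1 CPM in WT and 27.6, 24.6 and 27.6 in ΔTUT4/7 libraries (0.47 ± 0.08, adjusted p = 2.12e-05). It was higher in every library, but its 20 neighbours on chromosome 16 had a median of 0.62, and relative to them its difference was -0.15. CACNA1B (Cav2.2), the N-type channel of presynaptic terminals, was at 3.05, 2.65 and 2.51 CPM in WT and 6.27, 5.83 and 6.79 in ΔTUT4/7 libraries (1.21 ± 0.15, adjusted p = 7.51e-07), with no overlap. The L-type genes did not pass and their groups overlapped: CACNA1C, the cardiac and smooth muscle channel, at 17.8 ± 1.44 and 16.2 ± 1.48 CPM (-0.14 ± 0.09, adjusted p = 0.225, though it passed as lower under 3 alternatives), and CACNA1D at 9.63 ± 0.49 and 9.33 ± 0.94 CPM (-0.06 ± 0.11, adjusted p = 0.694).

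Partner and related channel genes, 31 tested of 48 listed, gave 9 higher (29.0%) and 10 lower (32.3%), beside 28.6% and 29.0% of all genes. Sodium beta subunits anchor and tune the alpha subunits. Of these, SCN4B fell from 9.32 ± 1.33 to 1.72 ± 0.25 CPM (-2.43 ± 0.16, adjusted p = 4.32e-11), and SCN3B rose from 1.52 ± 0.33 to 5.16 ± 0.24 CPM (1.77 ± 0.19, adjusted p = 6.63e-08), as did SCN2B, from 12 to 157 summed counts. SCN2B passed the minimum only in ΔTUT4/7 libraries, so the minimum favoured the direction of its change. The calcium beta subunits gave CACNB2 lower (-0.50 ± 0.08) and CACNB4 slightly higher (0.17 ± 0.05), and CACNB1 and CACNB3 did not pass. FGF13, a cytoplasmic factor that binds sodium channels, was at 1.02, 0.961 and 0.946 CPM in WT and 107, 110 and 108 in ΔTUT4/7 libraries. That log2 fold change of 6.80 ± 0.09 (adjusted p = 4.18e-22) was the largest among these partner genes. ANK2 and ANK3, ankyrins that tether channels to the membrane skeleton, both fell, ANK2 from 117 ± 5.95 to 31.4 ± 1.69 CPM (-1.89 ± 0.06, adjusted p = 1.62e-16; its neighbours -0.73) and ANK3 from 108 ± 1.96 to 62.6 ± 0.73 CPM (-0.79 ± 0.05). Of the hyperpolarisation-activated pacemaker channels, HCN2 rose from 3.73 ± 0.79 to 11.5 ± 1.44 CPM (1.60 ± 0.15, adjusted p = 6.68e-09) and HCN3 fell from 17.2 ± 1.30 to 7.51 ± 0.93 CPM (-1.18 ± 0.11, adjusted p = 6.65e-09), while HCN4 did not pass. CACNG8, a transmembrane AMPA receptor regulator of the gamma subunit family, fell from 22.5 ± 4.42 to 10.8 ± 0.91 CPM (-1.05 ± 0.13), and CATSPER2, of the sperm calcium channel, from 15.02 ± 0.86 to 4.36 ± 0.81 CPM (-1.76 ± 0.13).

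Channel genes that lie near each other moved together at some loci and apart at others, all picked after their values were seen. KCNA6 and KCNA1, with starts 101 kb apart on chromosome 12, both rose, as did KCNJ11 and KCNC1, 349 kb apart on chromosome 11. Around KCNA6 and KCNA1, 13 other expressed genes had a median of 0.32, with 8 higher and 3 lower. All 13 start at lower coordinates than KCNA6, and the stretch searched on each side differed between loci. Beside the counts at these loci, 28.6% of all genes tested were higher and 29.0% lower. Of protein-coding genes averaging at least 50 counts, 42.7% were higher and 31.7% lower. Around KCNJ11 and KCNC1, 16 others had a median of 0.07, with 6 higher and 4 lower. Of the expressed genes between KCNJ11 and KCNC1, ABCC8 did not pass (0.02 ± 0.10), and USH1C (-1.41 ± 0.14) and OTOG (-2.38 ± 0.24) fell. KCNA1, KCNA6 and, below, KCNA2, KCNA3 and SCN3A passed the minimum only in ΔTUT4/7 libraries, so the minimum favoured the direction of their changes. On chromosome 1 (hg38), KCNC4 spans chr1:110210314-110283100 on the plus strand, KCNA2 chr1:110519837-110631474 and KCNA3 chr1:110672465-110674940, both on the minus strand, with lower coordinates 310 and 462 kb from that of KCNC4. KCNC4 fell while KCNA2 and KCNA3 rose, and the 22 other expressed genes around KCNC4, KCNA2, KCNA3 and KCND3 had a median log2 fold change of 0.05, from -1.70 to 1.52, with 8 higher and 5 lower. On chromosome 2, SCN3A (minus strand, chr2:165087526-165204050) and SCN2A (plus strand, chr2:165194993-165392310) have lower coordinates 107 kb apart and spans that overlap, so reads of the shared stretch cannot be assigned without strand, and SCN3A rose while SCN2A fell. The 5 other expressed genes there had a median of -0.32, with 0 higher and 3 lower.

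**Figure D4:**
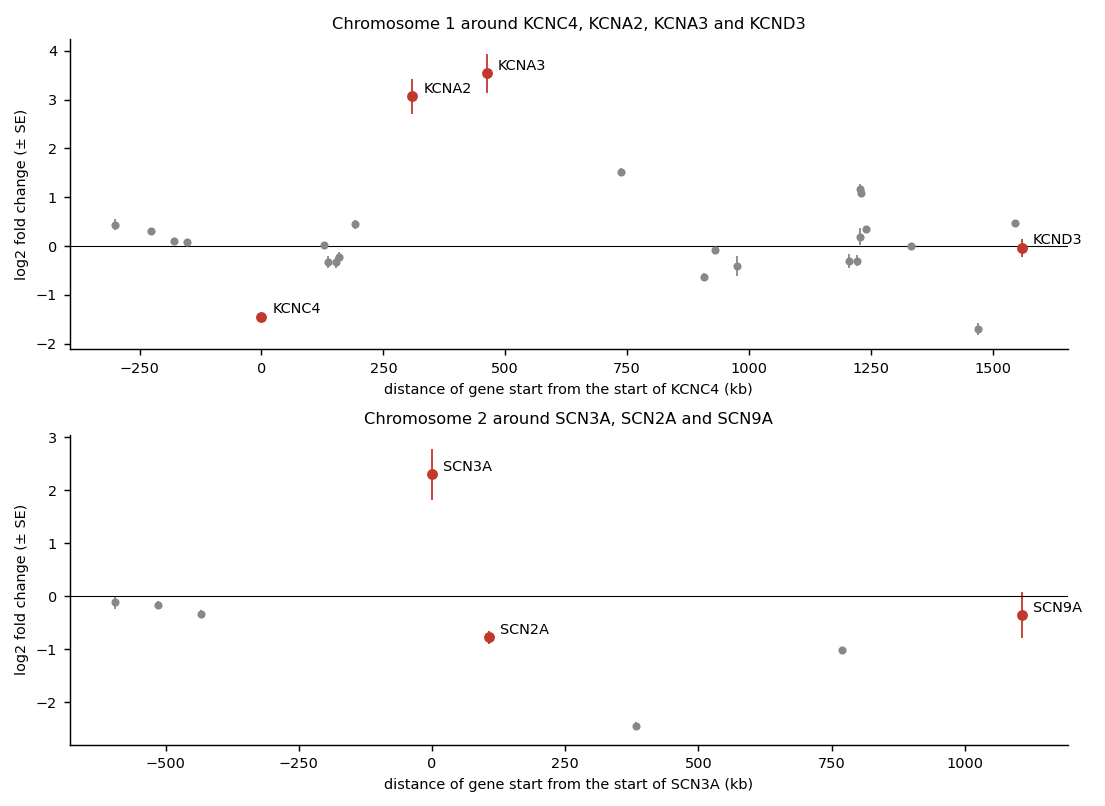
Log2 fold change of ΔTUT4/7 over WT (y axis, ± SE, 3 libraries a group) against distance of each gene's lower coordinate from that of KCNC4 (top) or SCN3A (bottom), in kb. Channel genes are red and labelled and other expressed genes grey; KCNC4 lies below 0 with KCNA2 and KCNA3 above it, and SCN3A lies above 0 with SCN2A below it.

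The promoters of the chromosome 1 genes KCNC4, KCNA2 and KCNA3 are shown because these nearby genes changed in opposite directions. Each runs from 250 bases before to 50 bases after a RefSeq start (GRCh38.p14), 5′ to 3′ on the gene's strand, for the entry nearest the gene's 5′ end as deposited. Capitals mark GC boxes, GGGCGG or its reverse complement CCGCCC. KCNC4 is chr1:110210064-110210363 on the plus strand, KCNA2 chr1:110631391-110631690 and KCNA3 chr1:110674891-110675190 on the minus strand.
KCNC4: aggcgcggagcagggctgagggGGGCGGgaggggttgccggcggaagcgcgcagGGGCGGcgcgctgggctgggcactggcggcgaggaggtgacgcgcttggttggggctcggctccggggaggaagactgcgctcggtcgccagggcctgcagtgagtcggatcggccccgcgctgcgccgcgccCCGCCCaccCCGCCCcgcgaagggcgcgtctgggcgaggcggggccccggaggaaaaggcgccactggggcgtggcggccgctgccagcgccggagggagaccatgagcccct
KCNA2: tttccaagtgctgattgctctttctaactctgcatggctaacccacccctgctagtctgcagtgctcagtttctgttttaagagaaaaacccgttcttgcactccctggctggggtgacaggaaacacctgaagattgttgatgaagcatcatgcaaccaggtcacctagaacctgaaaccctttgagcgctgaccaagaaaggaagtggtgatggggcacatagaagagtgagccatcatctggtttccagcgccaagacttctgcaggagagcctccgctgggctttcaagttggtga
KCNA3: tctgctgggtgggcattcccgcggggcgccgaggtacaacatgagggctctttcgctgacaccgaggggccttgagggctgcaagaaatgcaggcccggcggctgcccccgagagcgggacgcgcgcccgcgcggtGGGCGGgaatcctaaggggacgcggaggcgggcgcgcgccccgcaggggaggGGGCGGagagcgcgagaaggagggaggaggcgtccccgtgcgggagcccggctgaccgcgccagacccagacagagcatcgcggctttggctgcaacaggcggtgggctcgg
The KCNC4 promoter has 4 GC boxes and 78.7% GC, and that of KCNA3 has 2 and 73.7%, while that of KCNA2 has 0 and 50.3%. None of the 3 holds TATAAA or CCAAT on either strand. Of all 35116 promoters in the table, 45.0% hold a GC box, 11.5% TATAAA and 34.6% CCAAT. Of 71 tested channel genes, 48 had an entry, giving 80 promoters, of which 50% hold a GC box, with a median GC content of 65.7% against 58.7% for all. The median GC content was 69.3% in 16 promoters of 8 genes called 2-fold higher and 57.2% in 20 promoters of 12 genes called 2-fold lower. Promoters of 1 gene overlap in part and are not independent, and gene counts do not show which start was used, so these are descriptions of sequence.

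The 17 channel genes below the minimum had at most 3 to 12 counts in any library and are not among the tested genes. They comprise 13 potassium channel genes (KCNE4, KCNE5, KCNF1, KCNH4, KCNH6, KCNJ5, KCNJ6, KCNK2, KCNK4, KCNK6, KCNK7, KCNK9 and KCNN4) and the calcium channel genes CACNA1A, CACNA1E, CACNA1F and CACNA1I. Just inside the minimum were KCNE1 and SCN9A, with largest counts of 14 and 15, and just outside it KCNJ5 and CACNA1I, both with 12. With no minimum on counts, 1 of the 17 was called, CACNA1I, which had 2, 12 and 10 counts in WT and 4, 0 and 1 in ΔTUT4/7 libraries, groups that overlap (log2 fold change -2.09 ± 0.82, adjusted p = 0.0394). For the other 16, no change was detectable at this depth.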

How the data were processed

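Total RNA was extracted from HEK 293T cells, depleted of ribosomal RNA and sequenced from 3 WT and 3 ΔTUT4/7 libraries, grouped by their labels. The authors aligned reads with STAR 2.7.3a to hg38 and quantified Ensembl release 102 genes in Partek Flow 10.0.22. The deposited values are estimated counts per gene, not normalized, which the model can split between overlapping or similar genes. A statement on strand is not given in the sources used here. A second deposited table, in which the authors gave only their own comparison (p-value, FDR, ratio, fold change and group means), was not used.

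Estimated counts were rounded. Genes with a largest count above 12 were tested with edgeR 4.0.16 (R 4.3.3; TMM, glmQLFit robust, glmQLFTest, a model of group alone) and Benjamini-Hochberg adjusted p over the 23952 genes, and all adjusted p-values come from this quasi-likelihood test. Standard errors derive from its F statistic. CPM are relative to TMM-scaled library size. Exon lengths come from GENCODE release 44, and printed ends are 1 base below the deposited stop. Neighbours of a gene are up to 20 genes that average at least 50 counts, nearest by start and taken equally from both sides, with fewer near a chromosome end. The floor of 3 counts covers counting error only. The steps were tested on simulated data.

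Named genes are TUT4 and TUT7, every tested sodium and calcium gene, the member of each potassium class highest per kb, potassium genes called at 2-fold that average at least 50 counts, genes next to the minimum, and partner genes called at 2-fold at that average (at most 8). Results of some genes are not reported here, though they remain in the counts, sums and medians. Other members are named where a sentence accounts for them. The genes and lists were chosen with earlier results of these data known, so no list is tested. Alternatives were other scalings, DESeq2 1.42.0, limma 3.58.1, other limits on low counts, a block for replicate number, fits that leave out 1 library, and neighbours subtracted.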

Additional observations from a re-analysis of the deposited data

How the results depend on the processing

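Of the 45 calls at the FDR, 38 held in every alternative that tested them (14 or 15 for each), 7 were lost in at least 1 and none changed sign. Of the 28 calls at 2-fold or more, 25 passed the FDR in every alternative that tested them, and KCNH5, KCNJ4 and KCNMA1 did not. With limma on log2(CPM + 1), a scale that shrinks changes of scarce genes, 7 channel genes were 2-fold higher and 9 lower, of which 7 and 8 were potassium channel genes, with 0 higher and 0 lower sodium genes and 0 higher calcium genes. Where only genes averaging at least 50 counts were fitted, 11 channel genes passed the FDR as higher, 3 were 2-fold higher, 2 of these potassium and 0 sodium, and the potassium median was -0.11. The count of sodium genes 2-fold lower became 2 under library size alone and under upper-quartile scaling, and ran from 1 to 2 with 1 library left out, reaching 2 without ΔTUT4/7 replicate 1. Without a count filter 2 calcium genes were 2-fold lower, and the potassium median was -0.05. CACNA1D, not called, ran, with 1 library left out, from -0.1315 without ΔTUT4/7 replicate 3 to 0.01363 (adjusted p = 0.941, edgeR) without ΔTUT4/7 replicate 1, and CACNA1H to -0.15 with neighbouring genes subtracted. Replicate numbers did not pair the libraries (correlations of same-numbered deviations 0.05, -0.01 and -0.02 over 15575 genes), and with the replicate number as a block 13 genes were 2-fold higher and 14 lower. Depth limits the 32 tested genes with a mean count under 50, where 10 of the 13 increases at 2-fold or more lie.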
